A study of Bos taurus with 10 samples.

Results

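Spp1, the thrombospondin genes Thbs1, Thbs2 and Thbs4, Tnc, Postn, Sparc, Sparcl1, Fn1 and Fndc1 encode secreted proteins of the extracellular matrix. They were taken by symbol, as 10 of the 21130 rows of a table of gene expression in 10 libraries. The labels describe RNA from frozen muscle of cattle of 24 months: 7 libraries with the genotype MSTN+/-, heterozygous for the gene of myostatin, a secreted inhibitor of muscle growth, and 3 libraries of wild type. The labels do not say how the MSTN allele was made or how many animals were sampled. The question of the series is how muscle transcripts differ between these genotypes. Values are FPKM: fragment numbers divided by the length of the transcript and by the size of the library, which allows levels of different genes to be set side by side. The 10 genes were chosen with their values in this comparison known. Their levels and group differences are therefore given as a description, without p-values.

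Matricellular proteins are secreted into the matrix and act on cells through surface receptors more than by building the scaffold. Osteopontin, thrombospondins, tenascin C, periostin and SPARC bind integrins, CD44, CD36, CD47 or collagen, and many are raised in development, wound repair and fibrosis. In muscle they are made mostly by fibroblasts, by macrophages after injury and by activated muscle precursors. Fibronectin is a structural glycoprotein of the matrix on which several of them assemble.

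What the table holds differs from the species and tissue on the labels. The descriptions of 19415 rows, and of 9 of these 10, named Mus musculus, and 0 gene identifiers and 0 transcript accessions matched a RefSeq gene table of cattle. Of 12 markers of skeletal muscle, 4 stayed under 1 FPKM in all 10 libraries, and their summed level was 16.1 to 32.8 FPKM in the libraries labelled MSTN+/- and 26.8, 16.1 and 15.4 FPKM in wild type replicates 1, 2 and 3. Wild type replicate 1 stood apart from replicates 2 and 3. Summed over 10 markers of pluripotent cells, led by Pou5f1, Sox2 and Dppa5a, these 3 libraries held 2.31, 2643 and 2993 FPKM, against 911 to 1554 FPKM in the libraries labelled MSTN+/-. Of these markers 8 were above every MSTN+/- library in both replicates 2 and 3, while Pou5f1 was lower there (346 and 533 FPKM against 633 to 848) and Sox2 overlapped. Summed over 10 fibroblast markers, led by Col6a1, Dcn and Thy1, they held 1539, 189 and 115 FPKM, against 1019 to 1673 FPKM. FPKM totals were 402716 to 464418 per library. The number of fragments is not given, and relative depth read from the steps of low values was 1 to 1.18 times that of MSTN+/- replicate 1. Differences are therefore given between labelled groups, with no claim on genotype or on bovine tissue, and with their value for wild type replicate 1 where it departs from the others. The labels do not describe separate animals, so p-values below measure only how far these libraries scatter, which may be technical.

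Spp1 (gene 20750) encodes osteopontin, a secreted phosphoprotein that binds integrins and CD44. In the 7 libraries labelled MSTN+/- it was at 44.9 FPKM in the lowest, 83.6 FPKM in the median and 143 FPKM in the highest. In wild type replicates 1, 2 and 3 it was at 572, 737 and 629 FPKM. The groups did not overlap, and the 3 wild type libraries lay within 1.29-fold of each other. The means were 86.5 ± 35.4 FPKM (SD, n = 7) and 646 ± 83.9 FPKM (SD, n = 3), 7.47-fold higher in wild type. On the scale of log2(FPKM + 1), where changes of weakly expressed genes come out too small, the change was -2.98 with a standard error of 0.33. It was -2.82 against wild type replicate 1 alone and -3.07 without that library. By level, Spp1 was the 82nd to 93rd highest of all rows in the wild type libraries and the 439th to 1736th in the others. In bulk RNA, fewer cells of a type and less RNA per cell cannot be told apart.

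**Figure D1:**
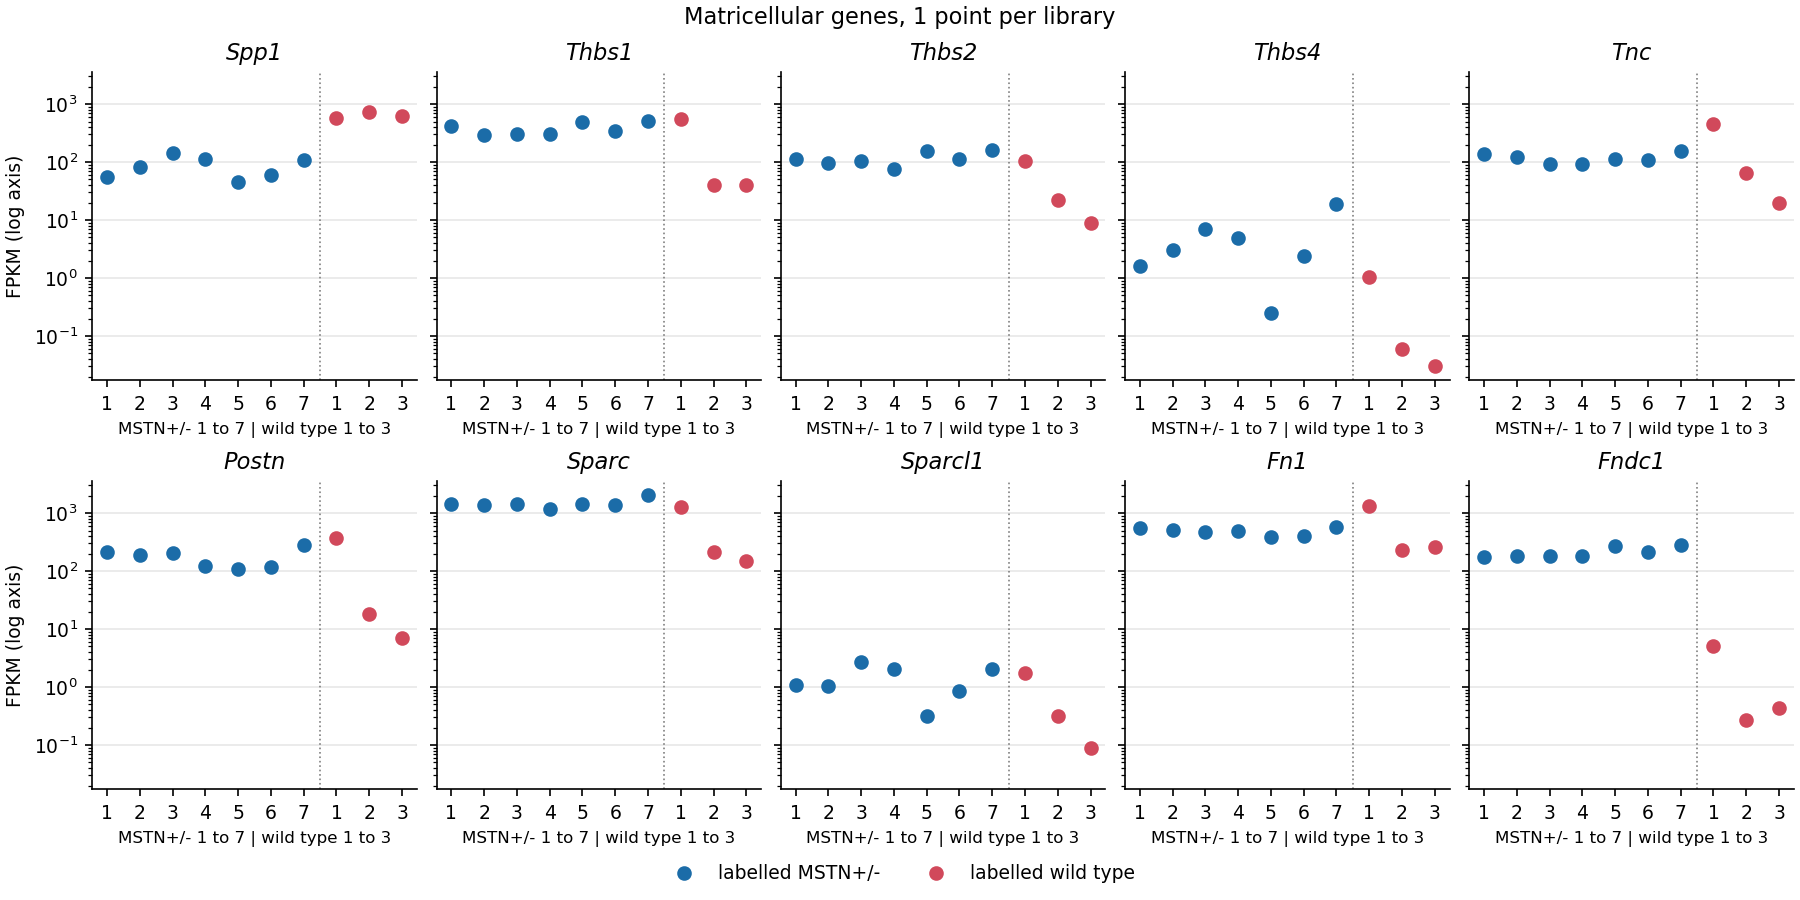
Level of each of the 10 genes in every library, in FPKM on a log axis, with 1 point per library; blue points are labelled MSTN+/- (replicates 1 to 7) and red points wild type (replicates 1 to 3). Spp1 is the gene with all 3 wild type points high (572 to 737 FPKM), Fndc1 the gene with all 3 low (0.27 to 5.06 FPKM), and in the 8 others wild type replicate 1 overlaps or exceeds the blue points while replicates 2 and 3 lie below it, and below every blue point except in Sparcl1.

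Thbs1 and Thbs2 encode trimeric thrombospondins that bind CD36 and CD47 and restrain vessel growth, and thrombospondin 1 also activates latent TGF-beta. Thbs1 (gene 21825) was at 296, 346 and 509 FPKM in the lowest, median and highest MSTN+/- library. The level in wild type replicate 1, 563 FPKM, was above all of these and those in replicates 2 and 3 far below them, at 39.8 and 40.1 FPKM. The mean was 378 ± 89.9 FPKM (SD, n = 7) against 214 ± 302 FPKM (SD, n = 3), a log2 change of 1.92 ± 0.69 (SE). It was 3.18 without wild type replicate 1 and -0.61 against that library alone, so its direction depended on that library. Thbs2 (gene 21826) was at 77.3, 111 and 160 FPKM in the MSTN+/- libraries, whereas wild type replicates 1, 2 and 3 held 106, 22.3 and 8.98 FPKM. The first of these lay inside the MSTN+/- range of Thbs2 and the other 2 below it. Its log2 change was 1.98 ± 0.57 (SE), 1.20 without wild type replicate 3 and 0.11 against wild type replicate 1 alone.

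Thbs4 encodes a pentameric thrombospondin of tendon and muscle attachments. Thbs4 (gene 21828) was a low and uneven transcript, at 0.25 FPKM in the lowest, 3.0 FPKM in the median and 18.7 FPKM in the highest MSTN+/- library, a 74.8-fold range. In wild type replicates 1, 2 and 3 it was at 1.06, 0.06 and 0.03 FPKM. The first of these exceeded MSTN+/- replicate 5, so the groups overlapped. The log2 change of 1.79 ± 0.70 (SE) depended on the pseudocount and was 3.44 with 0.1 in place of 1.

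Tnc encodes tenascin C, a large six-armed glycoprotein that loosens cell adhesion, and Postn encodes periostin, which binds collagen and integrins. Tnc (gene 21923) was at 91.1, 111 and 154 FPKM in the lowest, median and highest MSTN+/- library, whereas wild type replicates 1, 2 and 3 held 462, 63.8 and 19.9 FPKM. The first of these was 3.95-fold above the MSTN+/- mean, while the other 2 were below every MSTN+/- library. The means were 117 ± 22.9 FPKM (SD, n = 7) and 182 ± 243 FPKM (SD, n = 3). The log2 change was 0.44 ± 0.71 (SE). Without wild type replicate 1 it was 1.66, against that library alone -1.99, and without wild type replicate 3 it was -0.58. Postn (gene 50706) was at 110, 187 and 278 FPKM in the MSTN+/- libraries, whereas the 3 wild type levels of 369, 17.9 and 7.06 FPKM spanned a 52.3-fold range. Its log2 change was 2.13 ± 0.93 (SE), 3.77 without wild type replicate 1, 1.008 without replicate 3 and -1.14 against replicate 1 alone.

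Sparc encodes osteonectin, a collagen-binding glycoprotein, and Sparcl1 its relative hevin. Sparc (gene 20692) was the most abundant of the 10 genes in all 7 MSTN+/- libraries, at 1192, 1421 and 2027 FPKM in the lowest, median and highest, the 12th to 31st highest of all rows. Wild type replicate 1, at 1297 FPKM, lay inside that range, and replicates 2 and 3, at 210 and 148 FPKM, lay below it. The log2 change was 2.08 ± 0.53 (SE), 3.04 without wild type replicate 1 and 0.16 against that library alone. Sparcl1 (gene 13602) was near the limit of the table, at 0.32, 1.09 and 2.65 FPKM in the MSTN+/- libraries with wild type at 1.72, 0.32 and 0.09 FPKM. It reached 1 FPKM in 6 libraries, and its groups overlapped, with a log2 change of 0.55 ± 0.36 (SE) that was -0.24 against wild type replicate 1 alone.

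Fn1 (gene 14268), listed with 7 transcript accessions, encodes fibronectin and was the least variable of the 10 among the MSTN+/- libraries. There it was at 394, 486 and 564 FPKM in the lowest, median and highest, a coefficient of variation of 14.2%. In wild type replicate 1 it reached 1316 FPKM, 2.72-fold above the MSTN+/- mean, and in replicates 2 and 3 it was at 233 and 258 FPKM, below every MSTN+/- library. The means of 483 ± 68.7 FPKM (SD, n = 7) and 603 ± 618 FPKM (SD, n = 3) differed by less than the spread of the wild type libraries. The log2 change was 0.16 ± 0.45 (SE), and -0.06 after median-of-ratios scaling. It was 0.96 without wild type replicate 1, -0.28 and -0.21 without replicates 2 and 3, and -1.46 against replicate 1 alone.

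Fndc1 (gene 68655) encodes a secreted protein with fibronectin type III domains, and its product is less well studied than the others. It was at 173, 182 and 276 FPKM in the lowest, median and highest MSTN+/- library. Wild type replicates 1, 2 and 3 were at 5.06, 0.27 and 0.44 FPKM, all below. The means were 211 ± 45.5 FPKM (SD, n = 7) and 1.92 ± 2.72 FPKM (SD, n = 3), a log2 change of 6.54 ± 0.42 (SE). It was 5.10 against wild type replicate 1 alone, where the MSTN+/- mean was 41.6-fold higher. Fndc1 and Spp1 were the members for which wild type replicate 1 stood on the same side as replicates 2 and 3.

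All 10 genes passed the filter of 1 FPKM in at least 3 libraries, Thbs4, Sparcl1 and Fndc1 mostly through MSTN+/- libraries. In the fit over all genes, with limma and a Benjamini-Hochberg adjusted p under 0.05, 4 of the 10 were higher in MSTN+/- (Thbs1, Thbs2, Sparc and Fndc1), beside 31.8% of the 14047 genes tested. Spp1 was lower, beside 12.8% of genes. Every MSTN+/- library lay above every wild type library for 1 of the 10, beside 25.2% of genes, and below for 1, beside 6.86%. The median log2 change of the 10 was 1.86, and that of all genes tested 0.17. Without wild type replicate 1, 9 were higher and Spp1 lower, beside 42.2% and 31.9% of genes. Without replicate 2, Fndc1 was the gene of the 10 that was higher, beside 25.2%, and Spp1 lower, beside 5.71%. The same held without replicate 3, beside 24.8% and 5.7%, so Thbs1, Thbs2 and Sparc did not pass when either of these libraries was left out. Thbs1 also did not pass when any 1 of the MSTN+/- libraries was left out. A last fit kept wild type replicate 1 as the only wild type library. Against that library alone, Fndc1 was higher, beside 33.7%, and Fn1, Tnc and Spp1 were lower, beside 10.8%, with a median of -0.42. This last fit assumes that the lone library varies like the 7. As this comparison chose the genes, nothing is read from these counts.

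Wild type replicate 1 was above both other wild type libraries for 9 of the 10 genes, where 38.9% of all genes tested showed that order. It was the highest of all 10 libraries for Thbs1, Tnc, Postn and Fn1. Replicates 2 and 3 were below every MSTN+/- library for 8 of the 10, the exceptions being Spp1 and Sparcl1, where 42% of all genes tested showed that order. The genes were chosen with these values known, so nothing is read from these counts. All 10 fibroblast markers were also below every MSTN+/- library in replicates 2 and 3. In replicate 1 their sum was inside the MSTN+/- range, but 5 of them were above every MSTN+/- library and 3 below (Dcn, Lum and Dpt, with Dcn at 24.3 FPKM against 169 to 324). Smooth muscle markers, led by Acta2, Tagln and Cnn1, summed to 2352 FPKM in wild type replicate 1, to 56.6 and 34.7 FPKM in replicates 2 and 3 and to 169 to 313 FPKM in MSTN+/-. The part of these cell types in the levels was not tested.

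The 10 genes together held 2571 to 4096 FPKM in the MSTN+/- group, against sums of 4692, 1324 and 1113 FPKM for wild type replicates 1, 2 and 3. In the MSTN+/- libraries Sparc made up 46.4% to 50.6% of that sum and Spp1 1.5% to 4.82%. In wild type replicates 2 and 3 Spp1 made up 55.7% and 56.6%, Sparc 15.8% and 13.3%, and Fn1 17.6% and 23.2%. Wild type replicate 1 matched neither, with Fn1 at 28.05%, Sparc at 27.6% and Spp1 at 12.2%. Without Spp1, the sums of wild type replicates 2 and 3 were 587 and 483 FPKM, and that of replicate 1 was 4120 FPKM.

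**Figure D2:**
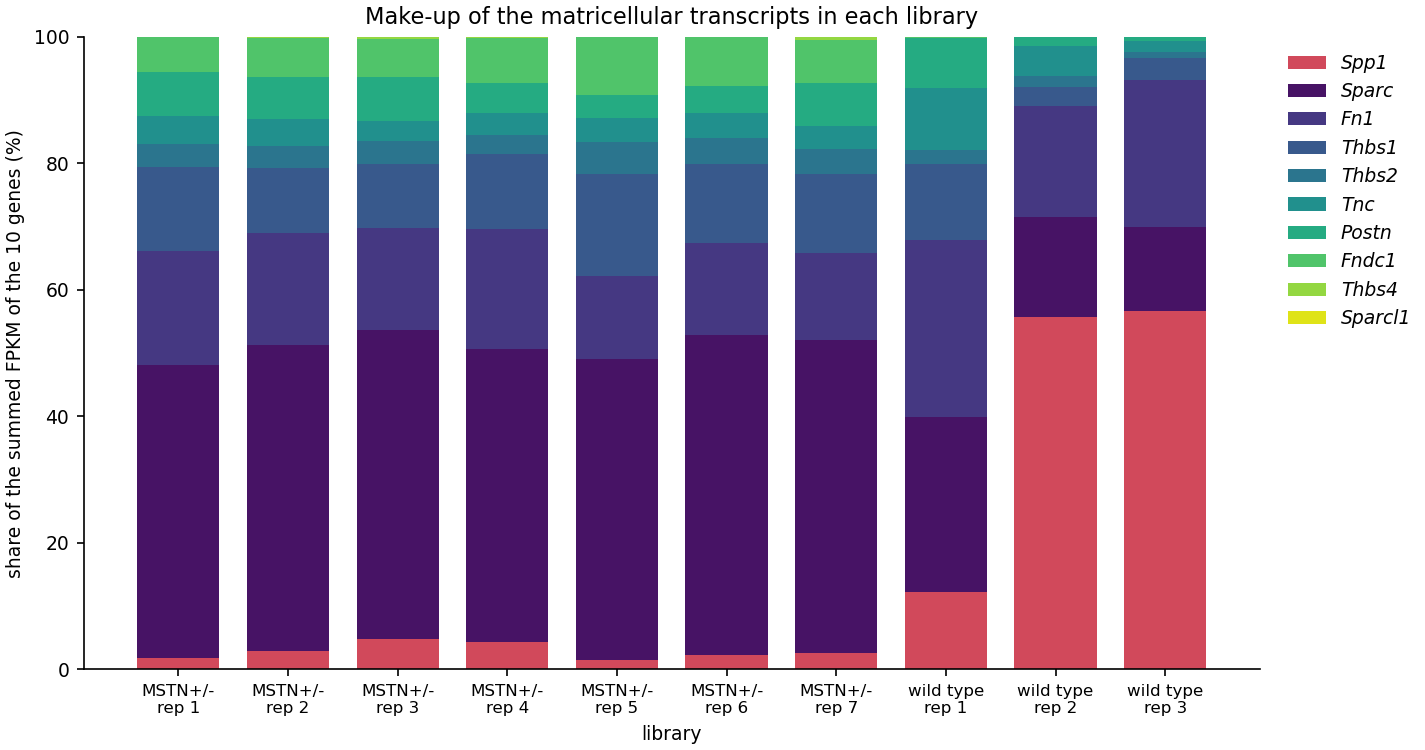
Share of the summed FPKM of the 10 genes that each gene held, as stacked bars in percent, with 1 bar per library. Spp1 (red) is a thin base in the MSTN+/- libraries (1.5% to 4.82%) and the larger part in wild type replicates 2 and 3 (55.7% and 56.6%); Thbs4 and Sparcl1 are too small to see in most bars.

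Several of the genes varied more among the MSTN+/- libraries than most genes did. The coefficient of variation over the 7 libraries was 116% for Thbs4, 40.9% for Spp1, 35.5% for Postn, 25.5% for Thbs2 and 23.8% for Thbs1. It was 21.6% for Fndc1, 19.6% for Tnc, 17.7% for Sparc and 14.2% for Fn1. Among 9661 genes with a mean of at least 5 FPKM, the median was 10.7% and the 90th percentile 23.6%. Sparcl1, with a mean of 1.43 FPKM, below that minimum, was at 57.3%. MSTN+/- replicate 7 was the highest of the 7 libraries for 8 of the 10 genes. The sums of the fibroblast and tendon markers were also highest there, at 1673 and 433 FPKM. Spp1 and Sparcl1 were instead highest in replicate 3 and lowest in replicate 5. Thbs4 was lowest in replicate 5 as well.

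The variation of Spp1 inside the MSTN+/- group was not what the genes were chosen on, and it was compared with the other 9 genes over the 7 libraries. Sparcl1 followed Spp1: Pearson's r was 0.95 (exact two-sided permutation p = 0.00317, adjusted over the 9 relations 0.0286) and Spearman's rho 0.86 (exact p = 0.0238, adjusted 0.107). Without replicates 3 and 5, the farthest from the median of Spp1, r was 0.88 over 5 libraries. The adjusted p of r missed the threshold without any 1 of replicates 2 to 6 (0.05 to 0.15), where the 6 libraries left gave r of 0.93 to 0.97. Thbs4 had r of 0.83 (exact p = 0.0149, adjusted 0.067) and rho of 0.89 (exact p = 0.0123, adjusted 0.107), and r was 0.78 without replicates 3 and 5. It passed without replicate 7, where r was 0.95 (exact permutation test, adjusted p = 0.025), and with a pseudocount of 0.1. Of the 9 relations, 1 passed by Pearson's r and 0 by Spearman's rho, and 2 had an unadjusted p under 0.05 by each measure. The coefficients for Thbs1, Thbs2 and Tnc were -0.47, -0.38 and -0.29 and those for Postn, Fn1, Sparc and Fndc1 were 0.45, 0.43, 0.13 and -0.28, with exact unadjusted p of 0.27 to 0.82.

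Sums of cell type markers are set beside this ordering. From the highest to the lowest Spp1 level, that is in MSTN+/- replicates 3, 4, 7, 2, 6, 1 and 5, the sum of 6 tendon markers led by Egr1, Fmod and Scx was 327, 285, 433, 216, 174, 199 and 122 FPKM. In the same order the pluripotent markers summed to 1294, 1554, 1303, 1166, 1194, 911 and 932 FPKM, and the 10 macrophage markers, mostly Cd68, to 11.96, 15.3, 11.5, 6.33, 10.15, 4.73 and 6.78 FPKM. Egr1 and Fmod made up most of the tendon sum, and Scx was lowest in replicate 4, at 3.25 FPKM. The pluripotent sum was mostly Pou5f1 and Sox2, and the median of its 10 markers was in the same order 29.1, 60.3, 13.9, 36.7, 21.7, 11.7 and 4.85 FPKM. The macrophage genes Adgre1, C1qa and C1qb were listed at 0 in all 7. The part of these cell types in the relation was not tested. The number of fragments behind the values of Sparcl1, at 0.32 to 2.65 FPKM, is unknown.

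**Figure D3:**
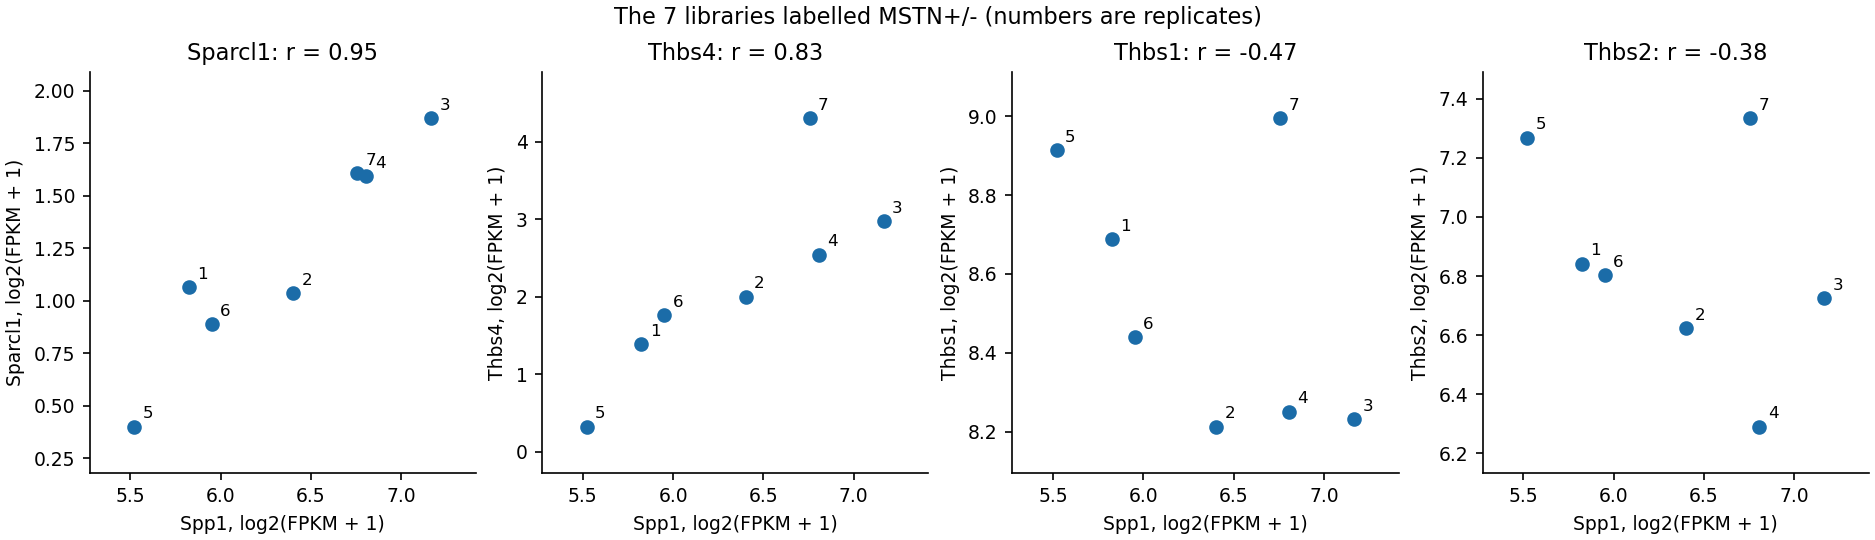
Spp1 against Sparcl1, Thbs4, Thbs1 and Thbs2 in the 7 libraries labelled MSTN+/-, both axes in log2(FPKM + 1), with replicate numbers beside the points and Pearson's r above each panel. Sparcl1 (r of 0.95) and Thbs4 (0.83) are lowest in replicate 5, where Spp1 is lowest, whereas Thbs1 (-0.47) and Thbs2 (-0.38) are high there.

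Likeness to Spp1 was then measured over all 10 libraries. Among 9562 genes with a mean of at least 5 FPKM, the highest Pearson's r of log2(FPKM + 1) were those of Slc7a5 (0.97), a transporter of large neutral amino acids, Reps1 (0.97), an endocytic adaptor, Tmeff1 (0.96), a transmembrane protein with follistatin-like domains, Slc20a1 (0.96), a phosphate transporter, and Dse (0.96), an enzyme of dermatan sulfate synthesis. Slc7a5 was at 22.2 to 35.7 FPKM in the MSTN+/- group, with wild type at 95.8, 97.5 and 128 FPKM. Slc20a1 was at 12.49 to 22.3 FPKM and at 66.4, 84.0 and 116 FPKM. The 10 points share the gap between the labelled groups, also in the correlation between Spp1 and Fndc1 (-0.94). The genes most like Fndc1 were C1qtnf1, a secreted complement-related protein, Tmem159, a lipid droplet protein, and Syngr2, a vesicle membrane protein, with r of 0.998 to 0.999. C1qtnf1 was at 35.2 to 53.7 FPKM in MSTN+/- with wild type at 4.88, 1.57 and 1.65 FPKM.

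The table's own annotation lists further terms for the 10 genes. They were picked as genes of secreted matrix proteins, so nothing is read from the shares that follow. A Gene Ontology component naming the extracellular space, region or matrix was given to 9 of the 10, all but Fndc1, and to 4.32% of all rows. The KEGG entry of integrin beta 1, a receptor subunit, stood in the rows of Fn1, Spp1, Thbs1, Thbs2, Thbs4 and Tnc, and in 0.866% of all rows. Binding to glycosaminoglycans was given for Fn1, Postn, Thbs1, Thbs2 and Thbs4, and for 0.644% of rows. Sequences of these genes were not used here.

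The relatives of these genes were read from lists of genes that are not among the 10. Of 32 further matricellular and small matrix glycoproteins, 30 had a row and 22 were tested, and 12 rose and 1 fell in MSTN+/- with limma at an adjusted p under 0.05, beside 31.8% and 12.8% of all genes tested. Their median log2 change was 1.34, beside 0.17 for all genes tested. Spock2, a SPARC-family proteoglycan, was at 25.4 ± 4.48 FPKM (SD, n = 7) against 2.62 ± 1.69 FPKM (SD, n = 3), which in limma was a log2 change of 2.99 ± 0.29 (SE, adjusted p = 3.675e-05). Efemp1, a fibulin, was at 159 ± 34.9 FPKM against 32.8 ± 27.7 FPKM (log2 change 2.52, limma with adjusted p = 6.443e-04). Tnxb, tenascin X, was at 1.40 to 6.46 FPKM with wild type replicates 1, 2 and 3 at 0.18, 0.01 and 0.08 FPKM. Lgals3, the galectin 3 gene, was at 86.5 to 126 FPKM and at 81.2, 18.6 and 15.6 FPKM. The gene that fell, named here after its value was seen, was Smoc1, a SPARC-family gene, at 0.76 to 5.01 FPKM and at 4.13, 8.96 and 8.07 FPKM. Tnxb and Comp, the latter named after its value was seen, are among the 12 that rose. Both reached 1 FPKM only in MSTN+/- libraries and so passed the filter only through the group where they were high. Nothing is read from these calls. Counts depended on the wild type libraries: 7 rose without replicate 2, beside 25.2% of all genes, and 7 without replicate 3, beside 24.8%. Over all genes 5.71% and 5.7% fell in these 2 settings. Smoc1 missed the threshold in both (limma adjusted p of 0.0764 and 0.0673). Without replicate 2 another relative fell, Fbln1 (limma adjusted p = 0.0395), named after its value was seen. Without replicate 1, 17 rose and 1 fell, beside 42.2% and 31.9% of all genes. Against replicate 1 alone, the median log2 change was -0.30, beside 0.26 for all genes. Spock2, Efemp1, Tnxb and Lgals3 were then at 3.96, 1.26, 1.93 and 0.44, and Smoc1 and Fbln1 at -0.71 and -1.16.

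Receptors showed the same dependence. Of 24 integrin subunits and other receptors of these ligands, 21 were tested, 6 rose and 0 fell, beside the same 31.8% and 12.8% of all genes, so that the share that rose was near that of all genes. At an unadjusted p under 0.05 the counts were 7 and 1, beside 5097 and 2427 of all 14047 genes tested. The median log2 change was 0.40, beside 0.17 for all genes. Cd36, a thrombospondin receptor, was at 2.37 ± 0.71 FPKM (SD, n = 7) against 0.18 ± 0.10 FPKM (SD, n = 3), a log2 change of 1.49. Cd36 reached 1 FPKM only in MSTN+/- libraries and so passed the filter only through the group where it was high. Nothing is read from its call, which is among the 6. Cd47, another thrombospondin receptor, was at 22.6 to 31.6 FPKM with the same wild type libraries at 19.6, 8.34 and 4.19 FPKM. The syndecan gene Sdc2 was at 57.9 to 82.5 FPKM and at 46.8, 8.21 and 11.4 FPKM, and the integrin gene Itgb5 at 112 to 163 FPKM and at 101, 25.1 and 26.8 FPKM. Without wild type replicate 1, 15 of 20 rose and 2 fell, beside 42.2% and 31.9% of all genes. Without replicate 2 or replicate 3, 4 of 21 rose, beside 25.2% and 24.8%, and 0 and 1 fell, beside 5.71% and 5.7%. Against replicate 1 alone, the median log2 change was -0.51, beside 0.26 for all genes. Cd36, Cd47, Sdc2 and Itgb5 were then at 1.36, 0.44, 0.47 and 0.28. Ddr2, a collagen receptor named after its values were seen, rose with all libraries and was at -0.38 against replicate 1 alone. The osteopontin receptors Itgav and Cd44, named after their values were seen, did not pass the threshold with all libraries. Itgav was at 25.1 to 26.9 FPKM in MSTN+/- with the wild type libraries at 71.6, 11.5 and 7.99 FPKM, and Cd44 at 59.5 to 77.5 FPKM and at 94.9, 21.5 and 5.80 FPKM. Neither was high in all 3 wild type libraries as Spp1 was.

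Among 18 fibril and latent TGF-beta partners, all tested, 7 rose and 0 fell, beside 31.8% and 12.8% of all genes. At an unadjusted p under 0.05 the counts were 10 and 0, beside 5097 and 2427 of all 14047 genes tested. The median log2 change was 1.80. Tgm2, a matrix crosslinking transglutaminase, was at 53.9 ± 9.13 FPKM (SD, n = 7) against 6.06 ± 6.99 FPKM (SD, n = 3), a log2 change of 3.39 (limma adjusted p = 2.134e-04). The elastin gene Eln was at 51.4 to 195 FPKM with the wild type libraries at 37.6, 0.51 and 0.72 FPKM. The collagen gene Col3a1 was at 471 to 1008 FPKM and at 511, 50.4 and 65.8 FPKM, and Bmp1, a procollagen protease, at 51.6 to 82.1 FPKM and at 58.7, 10.4 and 7.52 FPKM. Leaving out wild type replicate 2 or replicate 3 left 3 genes that rose, beside 25.2% or 24.8% of all genes. Bmp1 then had limma adjusted p of 0.0737 or 0.0759. Without replicate 1, 16 rose, beside 42.2% of all genes. Against replicate 1 alone, the median log2 change was -0.87, beside 0.26 for all genes. Tgm2, Eln, Col3a1 and Bmp1 were then at 1.84, 1.34, 0.52 and 0.04, and Fbn1 and Col5a1 at -0.75 and -1.29. Fbn1 and Col5a1 of these partners are also among the fibroblast markers, and Comp of the relatives is also a tendon marker.

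Of 12 other genes named for fibronectin type III domains, 10 had a row and 6 were tested, 2 rose and 2 fell, beside 31.8% and 12.8% of all genes. Fndc3c1 was at 7.60 ± 1.84 FPKM (SD, n = 7) against 1.07 ± 0.66 FPKM (SD, n = 3), a log2 change of 2.07 (limma adjusted p = 9.286e-05), and its wild type levels of 0.62, 0.76 and 1.82 FPKM were all below the 4.58 to 10.4 FPKM of MSTN+/-, as was the case for Fndc1. Fsd1 was lower in MSTN+/-, at 1.59 to 4.46 FPKM against 4.22, 5.99 and 5.83 FPKM, and missed the threshold against replicate 1 alone (limma adjusted p = 0.156). Fndc3b and Fndc3a stood just inside the threshold (limma adjusted p = 0.0449 and 0.0479), at log2 changes of 1.14 and -0.33. Both missed it without any 1 of the 7 MSTN+/- libraries, with limma adjusted p of 0.0578 to 0.0848, and without wild type replicate 2. Fndc3b also missed it without wild type replicate 3 (0.233), and Fndc3a without replicate 1 (0.078).

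**Figure D4:**
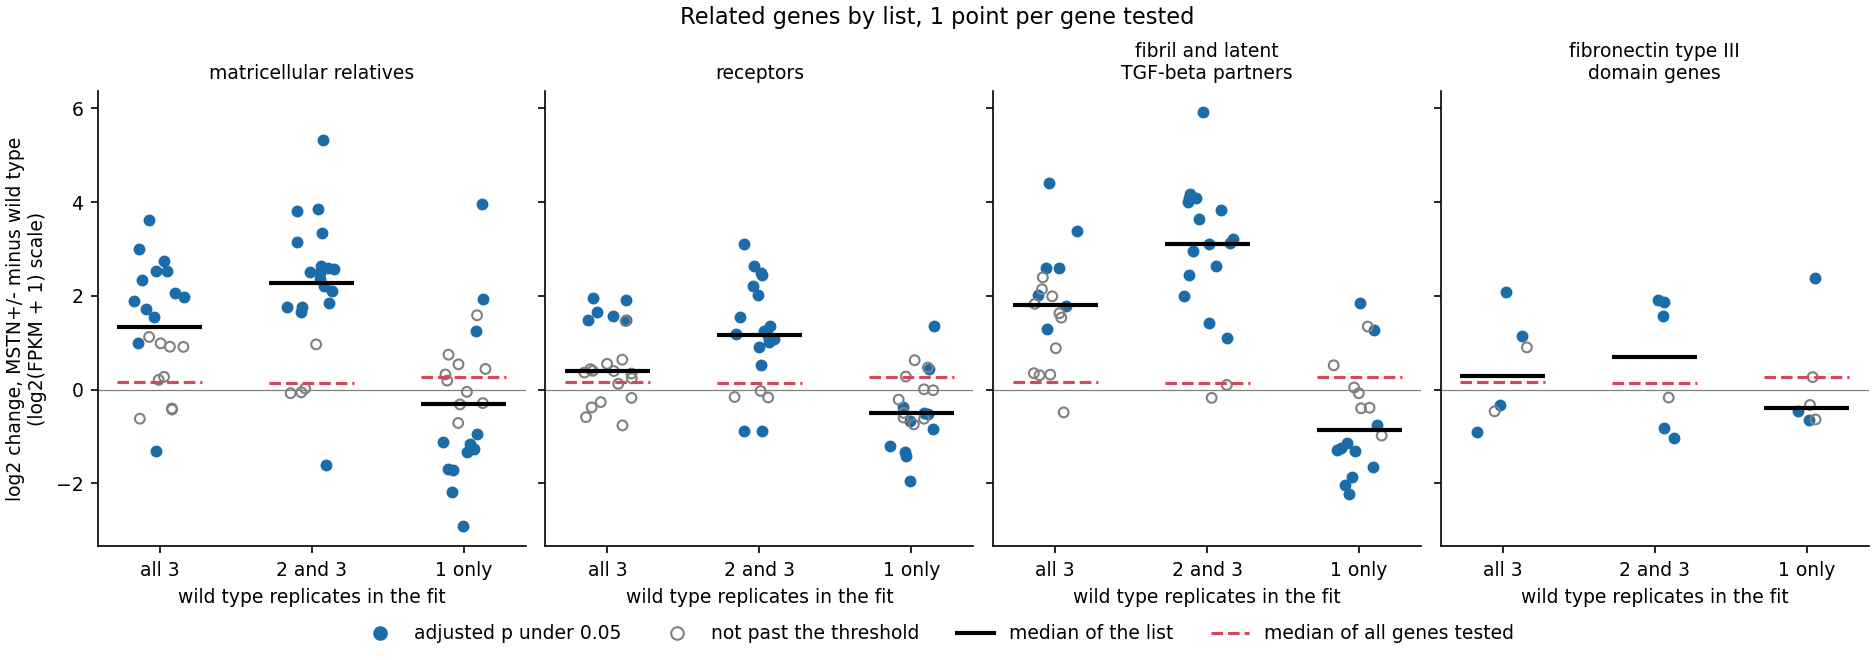
Log2 change (MSTN+/- minus wild type, log2(FPKM + 1) scale) of each gene tested in the 4 lists of related genes, with all 3 wild type libraries, with replicates 2 and 3, and with replicate 1 only; filled points passed an adjusted p under 0.05, black bars are list medians and red dashed bars medians of all genes tested. The matricellular, receptor and fibril medians are above the dashed bars in the first 2 columns (1.34, 0.40 and 1.80 with all libraries) and below 0 against replicate 1 alone (-0.30, -0.51 and -0.87).

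Markers of cell types that can make osteopontin are given beside the levels of Spp1. Macrophage markers summed to 27.5, 13.1 and 14.3 FPKM in wild type replicates 1, 2 and 3, beside 4.73 to 15.3 FPKM in MSTN+/-. Of the 10, 4 were above every MSTN+/- library in all 3 wild type libraries, as Spp1 was. Of all genes tested 6.86% showed that order, and Adgre1, C1qa and C1qb were too low to be tested. The lysozyme gene Lyz2 was at 9.81, 2.69 and 3.54 FPKM against at most 0.29 FPKM in MSTN+/-. The complement genes C1qa (4.41, 0.28 and 0.75 FPKM) and C1qb (4.85, 0.19 and 0.95 FPKM) and the macrophage gene Adgre1 (0.48, 0.12 and 0.12 FPKM) were listed at 0 in MSTN+/-. Cd68, which made up most of the MSTN+/- sums, and Csf1r, Itgam, Mrc1, Aif1 and the pan-leukocyte gene Ptprc overlapped between the groups or were lower in part of the wild type libraries, with Ptprc at most 0.04 FPKM in any library. Among the other lists, 2 of 6 smooth muscle and 1 of 6 tendon markers were above in all 3 wild type libraries, beside the same 6.86%. The skeletal muscle, fibroblast, pluripotent, osteoblast and endothelial lists had 0 such markers.

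Osteoblast markers summed to 11.2, 108 and 73.4 FPKM, beside 29.6 to 47.0 FPKM in MSTN+/-, and these sums were mostly Alpl (0.29, 107 and 72.5 FPKM against 21.5 to 40.9 FPKM). Runx2 had another order, at 10.2, 0.43 and 0.50 FPKM against 2.91 to 4.86 FPKM, and the median of the 8 markers was at most 0.175 FPKM in wild type and at least 0.39 FPKM in MSTN+/-. Endothelial markers summed to 9.10, 52.9 and 49.4 FPKM, beside 23.3 to 35.1 FPKM. Pecam1 and Egfl7 were high in wild type replicates 2 and 3, whereas Tek was at 0.66, 2.24 and 1.37 FPKM against 15.8 to 23.6 FPKM. In wild type replicate 1, where Spp1 was at 572 FPKM, Pou5f1 was at 0.38 FPKM and 2 of the 10 pluripotent markers were at 0. The part of these cell types in the level of Spp1 was not tested.

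**Figure D5:**
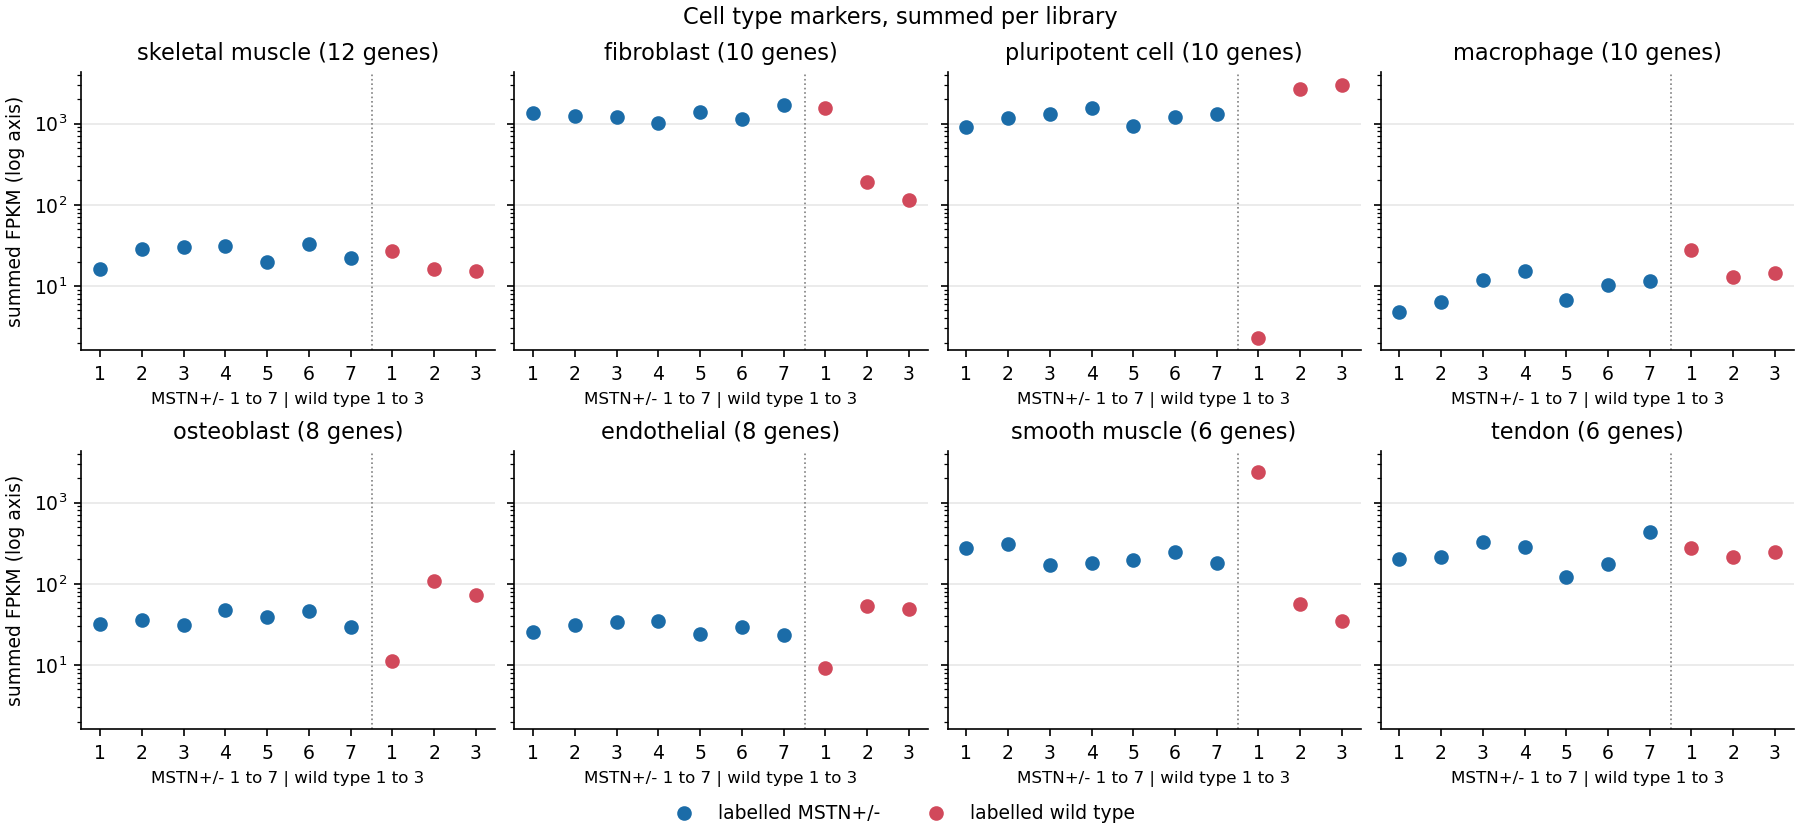
Summed FPKM of the markers of 8 cell types in every library, on a log axis; blue points are labelled MSTN+/- (replicates 1 to 7) and red points wild type (replicates 1 to 3). Wild type replicate 1 has the lowest pluripotent sum (2.31 FPKM) and the highest smooth muscle sum (2352 FPKM). No list has its sum above every MSTN+/- library in all 3 wild type libraries. Of single markers, 4 of 10 macrophage, 2 of 6 smooth muscle and 1 of 6 tendon markers do.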

How the data were processed

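Each cell of the deposited table is the FPKM of 1 gene in 1 library as the authors computed it, with 2 decimals, per the file headers. Which aligner, counter, build or filters they used is not given in the sources used here. Columns were tied to samples by library title and groups came from the genotype label, while replicate numbers only name libraries in record order. The 10 genes, the related lists and the tests were chosen with earlier results of these data known.

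FPKM values are not counts, so limma 3.58.1 (R 4.3.3) was fitted to log2(FPKM + 1) over the 14047 genes that reached 1 FPKM in 3 libraries or more. It used an intensity-dependent prior and no covariate, and Benjamini-Hochberg adjustment at a threshold of 0.05. Relations within the 7 MSTN+/- libraries used exact two-sided permutation over 5040 pairings, whose smallest p is 1.984e-04. The procedures were tested on simulated data. Of 86 list symbols, 82 had a row, older symbols included.

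Named genes were the 10, the 4 smallest limma p past the threshold in each list, the 5 genes most like Spp1 and 3 most like Fndc1 by Pearson's r, and the 3 highest markers per cell type. Further markers were named after their values were seen. Alternatives were 3 other scalings (median of ratios, TPM, quantile), a pseudocount of 0.1, no filter or a minimum mean of 5 FPKM, library weights, robust empirical Bayes, and leaving libraries out.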

Additional observations from a re-analysis of the deposited data

Results flagged for a closer look

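Among the 7 libraries labelled MSTN+/-, 6 of the 26 genes examined (the 10 matricellular genes and 16 named list genes) had 1 library far from the others by Dixon's criterion. The criterion was computed on FPKM, not on log2(FPKM + 1). Chance flags about 1 group in 20 where values are normally distributed, which was not tested. In 5 of the 6 the distant library was replicate 7: Sparc at 2027 FPKM (next 1446), Thbs4 at 18.7 FPKM (next 6.88), Bmp1 at 82.1 FPKM (next 61.97), Eln at 195 FPKM (next 108) and Itgb5 at 163 FPKM (next 122). The other was Fsd1 in replicate 4, at 4.46 FPKM (next 2.52). In replicate 7 the fibroblast markers summed to 1673 FPKM and the tendon markers to 433 FPKM, each the highest of the 7. The single markers Col6a1, Lum, Fbn1 and Tnmd were highest in other libraries. The part of these cell types in the values was not tested. Without replicate 7 the log2 changes of Sparc and Thbs4 were 1.999 and 1.44, in place of 2.08 and 1.79.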

How the results depend on the processing

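No paired analysis was possible because the labels carry no replicate numbers. Leaving out each library in turn, genes called over the whole table numbered 3445 to 5898 higher and 791 to 4449 lower, matricellular relatives 7 to 17 and 0 to 1, receptors 4 to 15 and 0 to 2, fibril partners 3 to 16 and 0, fibronectin type III genes 1 to 3 and 1 to 2, and relations of Spp1 0 to 2 by Pearson's r and 0 to 1 by Spearman's rho. Lower genes over the whole table numbered 3234 with median-of-ratios scaling, 3491 with quantile normalization and 3368 with library weights, in place of 1800, so the higher share of calls moved with scaling: 4468 higher as deposited, 3246 and 3087 after the first 2. Against wild type replicate 1 alone, the higher and lower counts were 3 and 9 for relatives, 2 and 9 for receptors, 2 and 9 for fibril partners, and 1 higher for fibronectin type III genes, and Thbs1 and Fndc3b reversed (-0.61 and -0.33). Only 1 wild type library is left in that setting, so nothing is read from these counts. The median log2 changes there were -0.30 for relatives, -0.51 for receptors, -0.87 for fibril partners and -0.39 for fibronectin type III genes. That of all genes tested was 0.26. With library weights, whose estimation stopped before convergence and is approximate, 14 receptors and 16 fibril partners rose and 0 relatives fell, and 0 relatives fell at a mean of at least 5 FPKM. Receptors that fell numbered 2 with median-of-ratios scaling and 2 with quantile normalization. Fibronectin type III genes that rose numbered 1 with median-of-ratios, TPM or quantile scaling, and those that fell 1 with TPM rescaling, no low-value filter or a mean of at least 5 FPKM. By Spearman's rho 1 relation passed with median-of-ratios scaling, and by Pearson's r 2 passed with a pseudocount of 0.1. Against wild type replicate 1 alone, Tnc, Postn, Fn1 and Sparcl1 also changed sign, to -1.99, -1.14, -1.46 and -0.24. So did further list genes, among them the receptor gene Ddr2, at 1.95 with all libraries and -0.38 there. Of the fibronectin type III genes, Fndc3a and Fndc4 were at -0.66 and -0.45 in that setting. The cause of these shifts was not tested. Spp1 and Fndc1 kept their direction in every alternative run, at -3.20 to -2.82 and 5.10 to 7.68. The unknown number of fragments limits Thbs4 and Sparcl1 most.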
